A study of Homo sapiens with 6 samples.

Results

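Nascent DNA was sequenced in U2OS cells, a human osteosarcoma line, to ask where in the genome newly made DNA accumulates when ERCC6L2 is missing. Described here are the 494 peaks that were listed in ERCC6L2-/- cells alone, lay on chromosome arms and held no long purine tract. The regions were chosen by 3 limits. They share no base with any control peak, they lie more than 3 Mb from both chromosome ends and more than 5 Mb from the centromere, and their longest uninterrupted run of purines (A and G), or of pyrimidines (C and T) read on the same strand, is under 30 bases. They make up 494 of 8555 ERCC6L2-/- consensus peaks and of 18840 consensus peaks of both genotypes. Wild-type control U2OS cells and ERCC6L2-/- U2OS cells, made by CRISPR/Cas9 and grown from a single-cell clone, were each given BrdU for 2 h, which replicating DNA takes up in place of thymidine. The labels name no other treatment of either group. Sonicated DNA was denatured and BrdU-containing strands were captured with an antibody and sequenced, with 3 samples per genotype, called triplicates in the labels. Which knockout clone they came from, and whether the 3 were separate cultures, is not given in the sources used here. The deposited lists hold 1 merged set of peaks per genotype, so no value per sample and no read depth could be read from them, and the tests below compare lists of peaks, not replicated cultures.

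ERCC6L2 is a SNF2-family ATPase linked to inherited bone marrow failure. DNA replication can slow or restart at sequences that fold into unusual structures: G-rich strands can form G-quadruplexes, purine tracts can form triplexes, alternating purine-pyrimidine runs can adopt left-handed DNA, and tandem repeats can slip into loops. Purine tracts of 30 bases or more are absent here by the rule, so these regions show which other sequences lie under peaks that only the mutant list holds.

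The sequences below are the forward strand of hg38, and each was picked because it carries a feature that the text returns to. In the highest-scoring member of unique sequence, capitals mark the G-quadruplex pattern (4 runs of at least 3 G, or at least 3 C, with loops of 1 to 7 bases).
Highest-scoring member of unique sequence, chr4:180566840-180567039: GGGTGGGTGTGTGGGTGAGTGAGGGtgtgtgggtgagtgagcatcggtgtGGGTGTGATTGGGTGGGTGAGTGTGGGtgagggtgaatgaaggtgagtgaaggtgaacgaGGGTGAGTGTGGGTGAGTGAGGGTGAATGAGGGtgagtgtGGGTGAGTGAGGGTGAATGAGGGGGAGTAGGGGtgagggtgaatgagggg
In the member at RGPD4, a duplicated relative of the nucleoporin gene RANBP2, capitals mark CG pairs.
Member at RGPD4, chr2:107827136-107827315: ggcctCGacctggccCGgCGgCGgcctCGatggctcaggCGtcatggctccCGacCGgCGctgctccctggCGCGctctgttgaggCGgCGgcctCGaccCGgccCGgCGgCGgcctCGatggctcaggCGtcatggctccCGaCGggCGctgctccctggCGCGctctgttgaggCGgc
In the member richest in G and T, capitals mark the few A and C bases.
Member richest in G and T, chr21:39511299-39511478: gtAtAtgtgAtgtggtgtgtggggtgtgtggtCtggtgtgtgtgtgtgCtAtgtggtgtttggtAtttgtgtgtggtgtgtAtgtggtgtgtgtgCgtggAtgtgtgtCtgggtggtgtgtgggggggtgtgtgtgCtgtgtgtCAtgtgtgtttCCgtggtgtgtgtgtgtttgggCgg
In the members rich in purines, capitals mark runs of at least 10 purines or at least 10 pyrimidines. Every run is broken before 30 bases.
Member richest in purines, chr2:132266620-132266799: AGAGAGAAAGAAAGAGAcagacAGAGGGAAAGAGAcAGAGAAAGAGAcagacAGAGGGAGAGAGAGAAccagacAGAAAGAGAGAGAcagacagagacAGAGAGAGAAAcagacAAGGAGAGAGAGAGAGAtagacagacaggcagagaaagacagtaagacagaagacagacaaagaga
Purine-rich member without a repeat, in CCNB3, chrX:50345243-50345422: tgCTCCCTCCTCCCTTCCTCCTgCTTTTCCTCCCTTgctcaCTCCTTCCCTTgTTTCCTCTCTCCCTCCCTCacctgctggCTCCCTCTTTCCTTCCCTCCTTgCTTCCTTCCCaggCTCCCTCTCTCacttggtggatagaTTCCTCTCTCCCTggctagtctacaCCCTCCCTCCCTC

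The values that chose the members are given first, as a description. Of the 3459 ERCC6L2-/- arm peaks without a purine tract, 494 shared no base with a control peak, which is 14.3%. This share follows from the rule and nothing is read from it. With the lists exchanged, the same limits left 1381 control-only peaks, out of 2646 control-only arm peaks before the tract limit. The 494 members are the tract-free portion of 734 ERCC6L2-/- only arm peaks, and the other 240 held a tract. The members were 333 to 2122 bases wide with a median of 506, the 1381 control-only peaks had a median of 566 and the 2965 peaks found in both genotypes had a median of 702. The merged score, a -log10 p, reached the ceiling of the score column in 125 members (25.3%), in 522 control-only peaks (37.8%) and in 2025 shared peaks (68.3%). The lowest member score was 63.9 and the median was 221.

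The nearest control peak lay a median of 59.6 kb from a member, and 8 members had one within 1 kb, 72 within 10 kb and 474 within 1 Mb. The smallest gap was 344 bases. On the other side of that limit, no shared peak without a tract overlapped a control peak by under 100 bases, and the smallest overlap was 323 bases. For the tract limit, 8 members had a longest run of 29 bases and 3 excluded peaks had a run of 30 bases, while 38 members had runs of 25 to 29 and 21 excluded peaks had runs of 30 to 34. The member nearest a chromosome end lay 3.01 Mb from it on chromosome 5 and the nearest excluded peak lay 2.98 Mb from an end on chromosome 1. At the centromere limit, the nearest member (5.01 Mb away) and the nearest excluded peak (4.99 Mb away) were neighbours on chromosome 18.

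GC content set the members apart from both other lists. Their median GC was 52.5%, against 49.1% in control-only peaks. At least 50% GC was found in 319 of 494 members (64.6%, Wilson 95% interval 60.3 to 68.7), in 43.95% of control-only peaks (41.4 to 46.6) and in 50.4% of shared peaks (48.6 to 52.2). Both differences passed Fisher's exact test after Benjamini-Hochberg adjustment over the 35 comparisons made, with adjusted p = 3.41e-14 against control-only and 1.79e-08 against shared peaks. At a limit of 45% GC both differences were smaller. Members were 13.3 points above control-only peaks (exact test adjusted p = 7.7e-10) and 4.31 points above shared peaks (adjusted p = 0.0222). Of all 600-base windows of the same arms without a tract, 11.1% reached 50% GC. Here and below intervals cover counting error only, and peaks are not replicates. The lists also differ in width and score. Among peaks of 300 to 1000 bases the differences were 18.4 and 12.4 points, past the exact test. The higher-scoring peaks of each list, 248 members, 694 control-only and 2025 shared peaks, differed by 20.6 and 15.9 points, also past it. Each list was cut at its own scores, and 2025 is the number of shared peaks at the ceiling. Scores thus still differ between these subsets, and the difference at equal score was not tested.

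**Figure D1:**
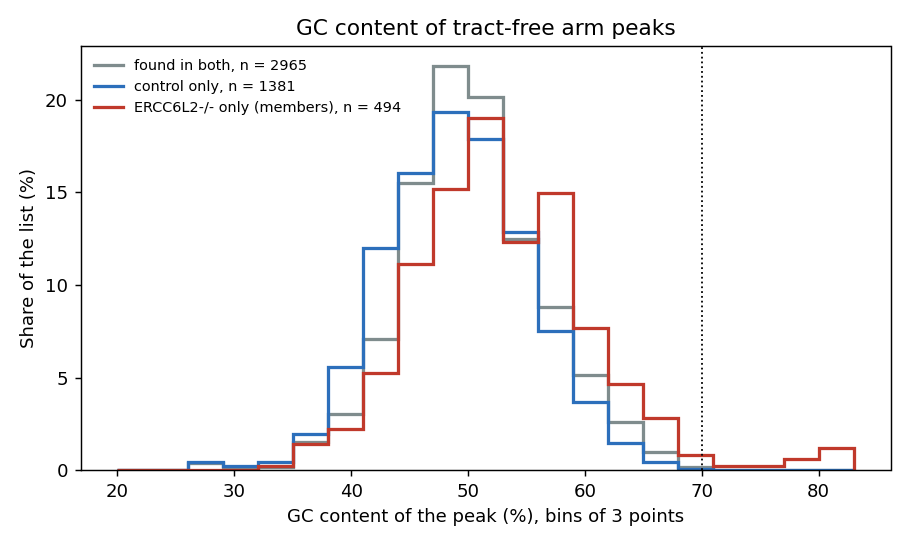
GC content of each peak (x axis, percent, bins of 3 points) against the share of its list (y axis, percent) for members, control-only and shared peaks on chromosome arms without a purine tract. Lines are histograms and the dotted line marks 70% GC; the member histogram lies to the right of the others and alone has a second group near 80%.

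The most GC-rich peaks were almost entirely members. At least 70% GC was reached by 13 of 494 members (2.63%, 1.54 to 4.45), by 0 of 1381 control-only peaks (up to 0.277%) and by 1 of 2965 shared peaks, with exact test adjusted p = 9.17e-08 and 5.47e-10. This threshold was chosen after the sequences had been seen. The exact test counts each peak as separate, but 7 of the 13 belong to a single repeat family and 3 to another. None of the 13 was of unique sequence, and in unique sequence alone 0 peaks of any of these lists reached 70% GC. Over the consensus peaks on sequences of the reference used here, with no arm or tract limit, 26 of 1607 ERCC6L2-/- only peaks and 1 of 3347 control-only peaks reached it, as did 14 of 6859 shared peaks of the ERCC6L2-/- list. Peaks on sequences missing from that reference, among them 7 ERCC6L2-/- only and 24 control-only peaks, were not counted.

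Of those 13 members, 12 were tandem repeats and 7 belonged to a single repeat family. That family joins 12 members on 9 chromosomes through identical 50-base stretches, and 10 of the 12 held a longer tandem repeat. Its 7 GC-rich members held 78.3 to 82.0% GC and all repeated with a period of 127 bases. The member in PJA2, which encodes an E3 ubiquitin ligase, was the most GC-rich of all at 82.0% with a score of 156, and a member on chromosome 10 reached the score ceiling at 81.7% GC with 12 matches to the G-quadruplex pattern. Others lay near RAD54L, a recombination gene, in CDK5RAP2, which organises centrosomes, and 17514 bases from the start of WDR5, where the repeat ran for 1661 bases. Their 50-base words occurred a median of 35 to 133 times in the reference, so a read made of such words could come from many places. None of the 13 members over 70% GC held a 50-base word that occurs in a control peak anywhere in the reference. The family as a whole did share words with control peaks: 5 of its 12 members, all under 70% GC, held such a word.

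A trio of the remaining GC-rich members lay at the starts of RGPD3, RGPD4 and RGPD8. They had 76.0 to 77.7% GC, and the RGPD4 and RGPD3 peaks were at the score ceiling. A repeat of about 90 bases ran for 986 bases at RGPD4 and 1252 bases at RGPD3, and the ratio of observed to expected CG pairs was 0.974 and 0.951. The closest control peak lay 106 kb from the RGPD4 member. Of the last 3, 1 lay in DANT2, a non-coding transcript associated with the DXZ4 macrosatellite on the X chromosome, with 72.4% GC, a ceiling score and no control peak within 24990 kb. FBLN7, which encodes a matrix protein, held a repeat of period 27 over 1334 bases in a peak that overlaps its exon sequence and lies 94 bases from a start. A tandem repeat of period 57, 78794 bases from the start of RXRA, a retinoid receptor gene, filled all 1262 bases of its peak. It carried 18 matches to the G-quadruplex pattern, more than any other member. Control peaks lay closer to others of the 13, at 2.43 kb from the FBLN7 member and 7.23 kb from the RXRA repeat. For the repeat near WDR5 and the chromosome 10 member the distances were 11.2 and 16.7 kb. Unique words made up 0% at DANT2, 42.6% at FBLN7 and 3.46% in the RXRA repeat.

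**Figure D2:**
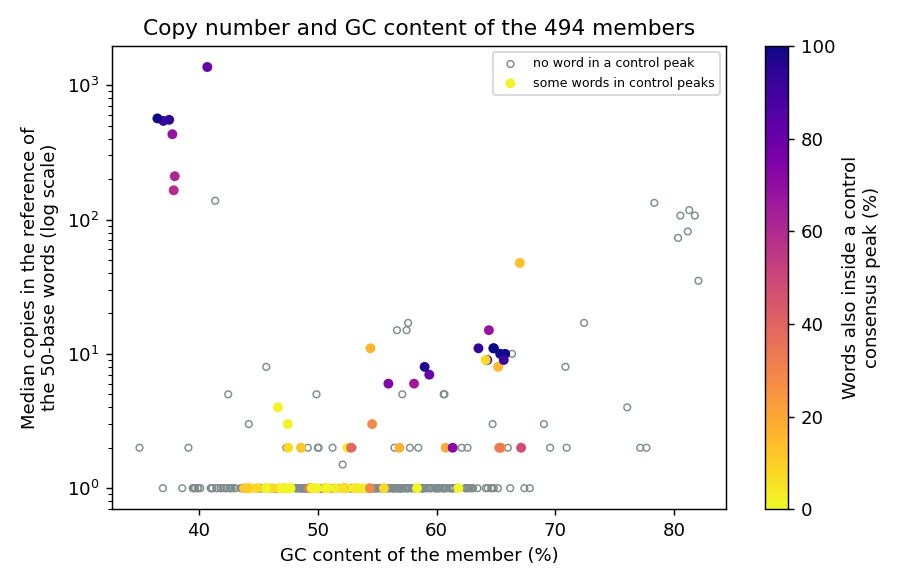
GC content of each of the 494 members (x axis, percent) against the median number of copies in the reference of its 50-base words (y axis, log scale). Open circles have no word in any control consensus peak and colour gives the percent of words that occur in one; the group near 80% GC with 35 to 133 copies is open, and the group near 37% GC is coloured.

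Most members were of unique sequence, meaning that at least 90% of their 50-base words occur 1 time in the reference. This held for 374 of 494 (75.7%), against 82.8% of control-only peaks (exact test adjusted p = 0.00182) and 74.9% of shared peaks (adjusted p = 0.848). The difference from control-only peaks was lost when neighbouring peaks within 100 kb were counted once (exact test adjusted p = 0.0941), and in peaks of 45 to 55% GC it turned to 0.546 points above. Of the members, 120 were not unique and 22 had no unique word at all. Members lay more often in local arrays, where the same words recur within 100 kb: 53 members (10.7%) did so, against 3.04% of control-only peaks (exact test adjusted p = 2.06e-09) and 6.78% of shared peaks (adjusted p = 0.00542). The second of these was lost when neighbours were counted once (exact test adjusted p = 0.393) and without chromosome 9 (adjusted p = 0.109). In peaks of 45 to 55% GC both were lost, at 1.95 points above control-only (exact test adjusted p = 0.179) and 0.533 above shared peaks (adjusted p = 0.797).

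Some members had a copy under a control peak at another place. For 70 members (14.2%) some 50-base word was found inside a control peak elsewhere, and for 20 members (4.05%) at least 50% of the words were. Of control-only peaks, 180 (13.0%) held a word of an ERCC6L2-/- peak and 30 (2.17%) held at least 50% of theirs in such peaks. For these 20 members at least that part of the sequence thus also lay under control peaks at another place in the reference.

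The members formed 446 groups when peaks within 100 kb were chained, and 413 stood alone. The largest group, of 8, lay across 156 kb of chromosome 8 within the REXO1L pseudogene array, where the ERCC6L2-/- list held 15 consensus peaks and the control list 9. There the median member had 96.1% of its words inside control peaks. The next, of 6, lay at chr9:60562736-60665781. These peaks held 36.5 to 38.0% GC and 59.5 to 100% of their words occurred in control peaks, and across them 47.5 to 64.0% of bases matched the base 1 alpha-satellite unit further on, alpha satellite being the tandem repeat of human centromeres. Their median share of unique words was 0 and their words recurred a median of 27.5 times within 100 kb, so the label of chromosome arm describes this stretch by its distance from the centromere point and not by its sequence. The match was scored over a fixed window at each peak, and in all 9 members reached 50% or more. Among them were the repeat near RXRA and the member richest in purines, on chromosome 2. Reaching 50% does not by itself mark alpha satellite, because any tandem repeat whose period divides that unit also matches. The period of the RXRA repeat divides it exactly. The third group, of 3, lay at chr17:43264310-43323732 around CCDC200, where the 3 members held 16.5 to 73.5% of their words in control peaks.

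The other 4 groups of 3 were split between those with and without control peaks. In SPTBN4, which encodes a spectrin of the axon initial segment, 3 members lay within 36.4 kb, with no control peak across that span, and 2 of them were at the score ceiling. Their purine shares were 72.5%, 77.8% and 79.7%. A further 3 lay within 53.3 kb at chr17:57697098-57750393, again with 0 control peaks across the span. In both groups the median share of unique words was 100% and members shared no word with a control peak. The span chr2:87406027-87430126 held 1 control peak, and its 3 members, of 65.3 to 67.1% GC, had 25.9 to 48.3% of their words in control peaks. The span chr9:134413109-134476507, by RXRA, held 2 control peaks, and its 3 members shared no word with any control peak.

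Base composition was strongly uneven between strands. A GC skew, (G - C)/(G + C) taken without its sign, of at least 0.4 was found in 64.2% of members, 67.3% of control-only peaks and 84.0% of shared peaks, against 0.670% of windows. The members were lower than shared peaks (exact test adjusted p = 2.26e-21) and the difference from control-only peaks did not pass (adjusted p = 0.294), though over the central 300 bases it was 8.14 points lower and passed the exact test (adjusted p = 0.00125). AT skew of at least 0.4 was found in 30.6% of members, 31.6% of control-only and 48.6% of shared peaks. Its difference from shared peaks passed the exact test at adjusted p = 2.98e-13 and from control-only peaks it did not, at adjusted p = 0.836.

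Among tract-free peaks, members were less often rich in purines than control-only peaks and less often rich in G and T than shared peaks. At least 65% purines on 1 strand was found in 219 members (44.3%, 40.01 to 48.7), in 61.4% of control-only peaks (58.8 to 63.9; exact test adjusted p = 3.72e-10) and in 44.3% of shared peaks (42.5 to 46.1; adjusted p = 1.00). The purine share is not independent of the rule, which bars long purine runs. That bar left 494 of 734 ERCC6L2-/- only arm peaks and 1381 of 2646 control-only arm peaks. Purine shares before it were not compared. At least 65% G and T on 1 strand was found in 183 members (37.04%, 32.9 to 41.4), in 30.2% of control-only peaks (27.8 to 32.7; exact test adjusted p = 0.0103) and in 72.1% of shared peaks (70.5 to 73.7; adjusted p = 1.23e-48). The smaller of these, against control-only peaks, was lost when chromosome 10 was left out (exact test adjusted p = 0.0517) and when runs of at least 20 purines were barred (adjusted p = 0.146). Of windows, 0.585% and 0.652% passed these limits. Among the members, 358 (72.5%) passed at least 1 of the 2 limits and 44 (8.91%) passed both. The member richest in purines, on chromosome 2, had 86.1% and the member richest in G and T, in SH3BGR on chromosome 21, had 90.4%.

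**Figure D3:**
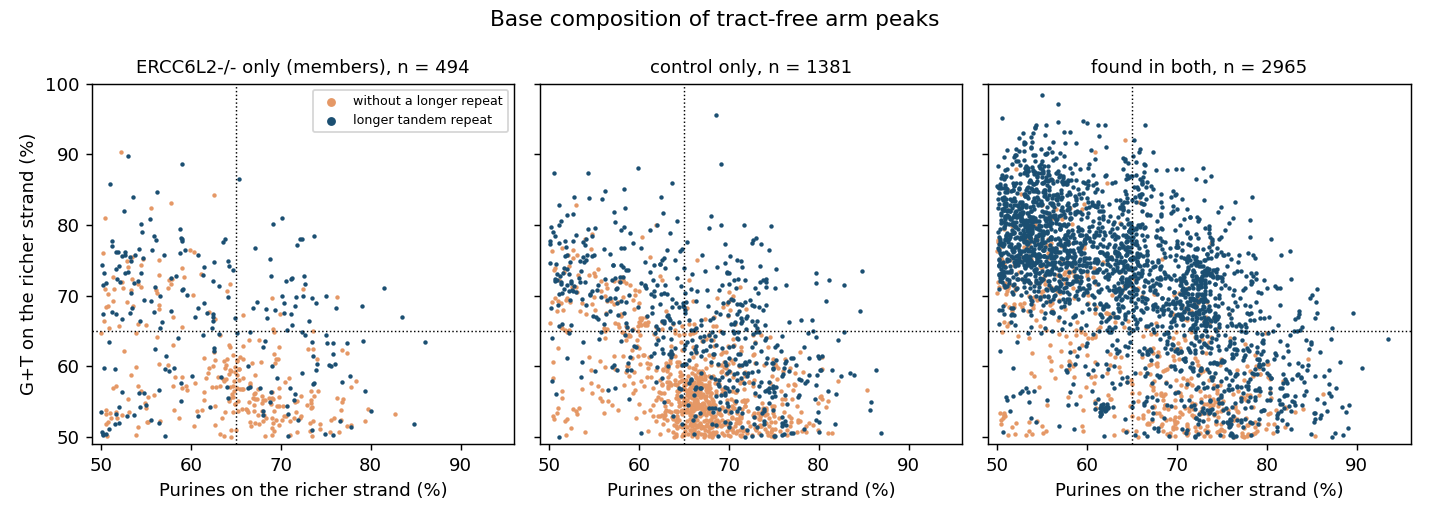
Share of purines (x axis, percent) and of G and T (y axis, percent) on the richer strand, 1 point per peak, in members, control-only and shared peaks. Dark points hold a longer tandem repeat and dotted lines mark 65%; members spread along both axes, control-only peaks gather just past 65% purines, and shared peaks gather above 65% G and T.

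Tandem repeats with a period of 7 to 150 bases, called longer repeats here, were found in 215 members (43.5%, 39.2 to 47.9), in 41.1% of control-only peaks (38.5 to 43.7) and in 81.2% of shared peaks (79.8 to 82.6). The difference from shared peaks passed the exact test at adjusted p = 2.30e-62 and the difference from control-only peaks did not, at adjusted p = 0.475. Of windows, 3.14% held 1. The period was 7 to 20 bases in 20 members, 21 to 50 in 45, 51 to 100 in 72 and over 100 in 78. Among the 125 members at the score ceiling 59.2% held a longer repeat, and among the other 369 it was 38.2%. A GC skew of at least 0.4 was found in 70.7% of members with a longer repeat and in 61.3% of the 238 members with neither a longer nor a short repeat.

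Short repeats, of period 1 to 6 over at least 30 bases, were less common. They occurred in 88 members (17.8%), 20.6% of control-only peaks and 28.1% of shared peaks, against 3.75% of windows. Members were lower than shared peaks (exact test adjusted p = 2.89e-06), while adjusted p was 0.296 against control-only peaks. In peaks of 45 to 55% GC the first fell to 7.21 points below and did not pass (exact test adjusted p = 0.0634). The period was 4 bases in 36 members, 2 in 23 and 6 in 22. The longest, of period 5, ran for 122 bases on chromosome 4. Alternating purine-pyrimidine runs of at least 30 bases were found in 52 members (10.5%), 11.3% of control-only peaks and 13.2% of shared peaks, with exact test adjusted p of 0.836 and 0.175. The longest ran for 316 bases on chromosome 4.

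The G-quadruplex pattern was found in 111 members (22.5%), 21.7% of control-only peaks and 15.7% of shared peaks, against 5.44% of windows. The difference from shared peaks passed the exact test (adjusted p = 7.69e-04) and that from control-only peaks did not (adjusted p = 0.848). In peaks of 45 to 55% GC alone the order turned, with members lower than control-only peaks by 7.32 points (exact test adjusted p = 0.0426) and 1.23 points above shared peaks (adjusted p = 0.797). The CpG island measure, at least 50% GC with an observed over expected CG ratio of at least 0.6, was met by 46 members (9.31%), 3.55% of control-only peaks (exact test adjusted p = 5.90e-06) and 8.94% of shared peaks (adjusted p = 0.874). Among peaks of unique sequence the difference from control-only peaks was 2.37 points with exact test adjusted p = 0.0714. A match of at least 50 bases to the 7SL RNA gene, the ancestor of Alu elements, was rare, in 14 members (2.83%), 3.04% of control-only and 1.05% of shared peaks (exact test adjusted p = 0.932 and 0.00703). The difference from shared peaks was lost without chromosome 1 (exact test adjusted p = 0.166).

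**Figure D4:**
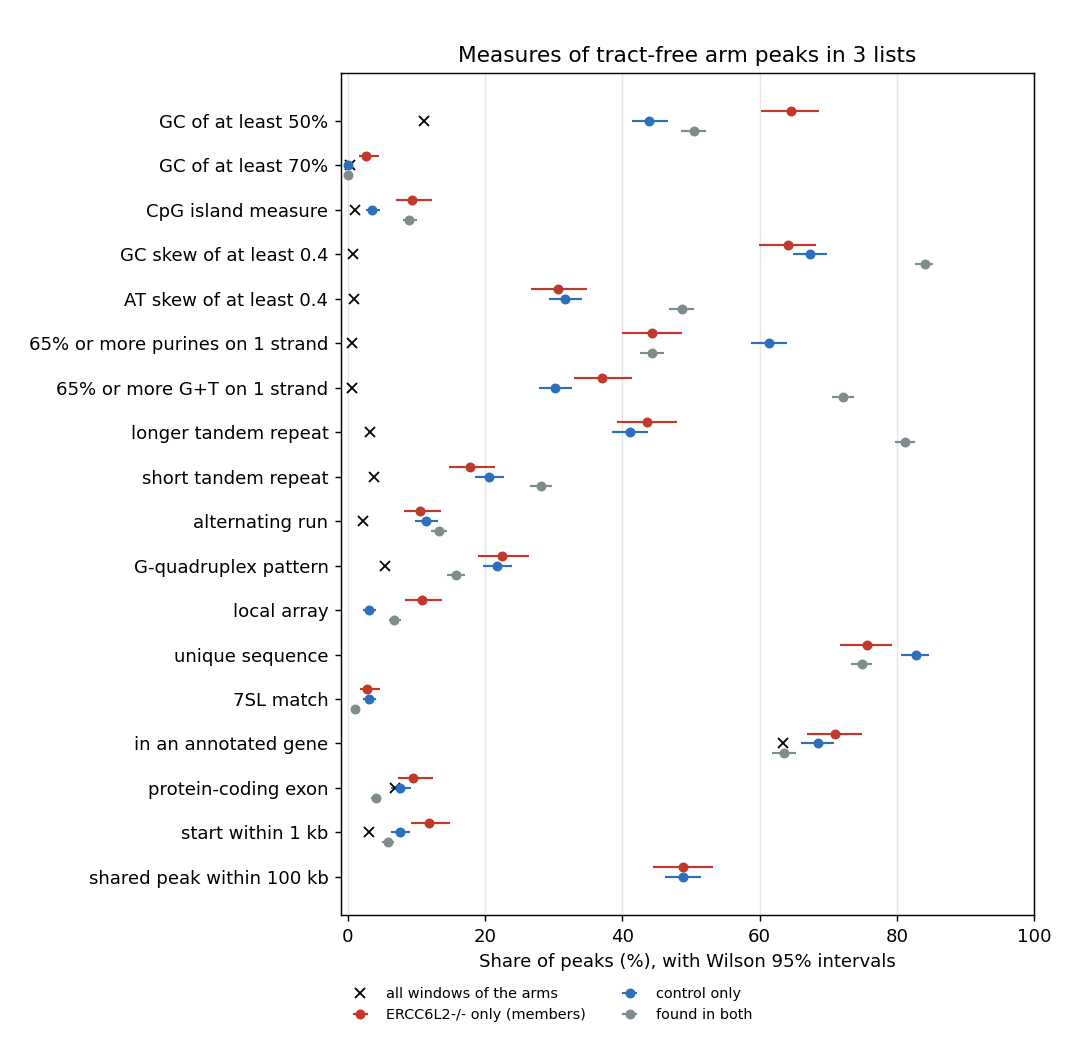
Share of peaks (x axis, percent) that meet each of 18 measures (y axis) in members, control-only and shared peaks, with Wilson 95% intervals, and in all 600-base windows of the arms (crosses, where computed). Members stand apart from both other lists at 50% and 70% GC, and shared peaks stand apart at longer repeats and at G and T.

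The 5 members of unique sequence with the highest scores, all at the ceiling and ranked by width, show these features. The widest, at chr4:180565878-180567388, spans 1511 G-rich bases with 12 matches to the G-quadruplex pattern and a GC skew of 0.908. Its longest tandem repeat, of period 60, covers 226 of those bases, and its nearest control peak lay 672 kb away. The next covers a start of SCNN1A, an epithelial sodium channel gene, on chromosome 12, overlaps exon sequence of LTBR, the lymphotoxin beta receptor gene, and has neither repeat nor skew. The third lies in PALLD, which encodes an actin-bundling protein, with 88.6% G and T. The fourth, on chromosome 4 again, has a repeat of period 126 and a GC skew of 0.765. The fifth lies in SMYD3, a methyltransferase gene, and carries an alternating run of 46 bases.

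Of those 5, 3 lay on chromosome 4. That chromosome held 27 members (5.47%) and 33 control-only peaks (2.39%), with exact test adjusted p = 0.0358 over 23 chromosomes. Chromosome 2 held 53 members (10.7%) and 90 control-only peaks (6.52%), with exact test adjusted p = 0.0458. No other chromosome passed. When neighbours within 100 kb were counted once, neither passed, with exact test adjusted p = 0.0773 for chromosome 4 and 0.185 for chromosome 2.

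**Figure D5:**
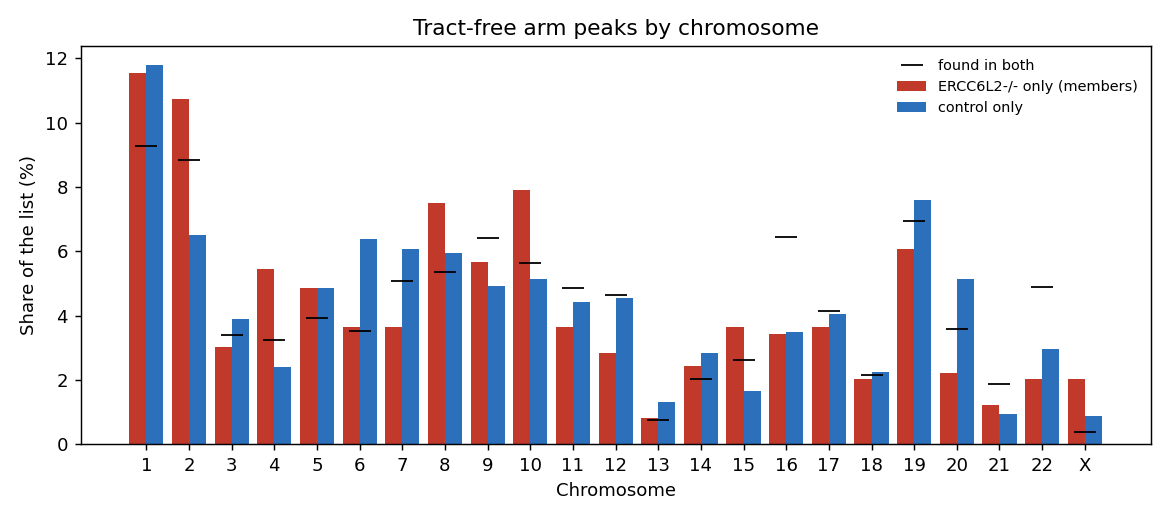
Share of each list (y axis, percent) by chromosome (x axis), as bars for members and control-only peaks and dashes for shared peaks. Chromosomes 2 and 4 hold a larger share of members than of control-only peaks.

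Members met genes slightly more often than shared peaks did. An annotated gene was overlapped by 351 members (71.1%), 68.5% of control-only peaks (exact test adjusted p = 0.413) and 63.6% of shared peaks (adjusted p = 0.00277), against 63.4% of windows. The difference from shared peaks was lost when neighbours were counted once (exact test adjusted p = 0.0526) and in peaks of 45 to 55% GC (adjusted p = 0.179). Among members, 284 overlapped a protein-coding gene, 237 of them with no exon, 67 overlapped non-coding genes alone and 143 lay in no gene. Protein-coding exons were overlapped by 47 members (9.51%), 7.60% of control-only peaks (exact test adjusted p = 0.274) and 4.08% of shared peaks (adjusted p = 5.90e-06). The difference from shared peaks was lost in peaks of 45 to 55% GC, at 2.91 points (exact test adjusted p = 0.0657). The share of windows was 6.82%.

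A transcription start lay within 1 kb of members more often than of peaks in either other list. A protein-coding start lay within 1 kb of 58 members (11.7%, 9.19 to 14.9), of 7.53% of control-only peaks (6.25 to 9.04; exact test adjusted p = 0.0110) and of 5.80% of shared peaks (5.01 to 6.70; adjusted p = 1.36e-05), against 3.06% of windows. Within 5 kb the difference from control-only peaks was 0.129 points, with exact test adjusted p = 1.00. In peaks of 45 to 55% GC neither difference passed the exact test (adjusted p = 0.476 against control-only and 0.0657 against shared peaks). Of the 58 members, 5 covered a start, 17 met the CpG island measure, 15 held a longer repeat and 36 had a GC skew of at least 0.4.

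The 15 highest scores among them were at the starts of named genes of many kinds. After RGPD4, RGPD3 and SCNN1A came PLA2G6, a phospholipase gene, at 140 bases from the start, then SELENBP1, which encodes a selenium-binding protein, at 382 bases, and MYO3A, a myosin gene of the inner ear, at 223 bases. FABP5 and PFKFB3, genes of fatty acid transport and of glycolytic control, each had a member 46 bases from a start. CEP192, a centrosome gene, had 1 at 857 bases. TREML2, RUFY4 and GRB10, the last an imprinted adaptor of insulin signalling, lay 390 to 731 bases from theirs. All 12 of these were at the score ceiling. SPIB, a B-cell transcription factor gene, ACTN2, a sarcomere actinin gene, and XPO5, which exports microRNA precursors, followed with scores of 310, 303 and 299.

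Of the 293 protein-coding genes that overlapped a member, 21 overlapped at least 2, and 12 of those 21 held no control-only peak. Control-only and shared peaks with a tract were not counted in these genes. The share of all protein-coding genes without a control-only peak was not computed, so nothing is read from the 12. SDK1, a synaptic adhesion gene of 968 kb, held 4 members, 1 control-only peak and 3 shared peaks. SPTBN4 held 3 members and no other tract-free arm peak. RASGRF2, a Ras exchange factor gene, and RBM20, a splicing regulator gene of heart muscle, each held 2 members and no other tract-free arm peak. The same held for SYT7, a synaptotagmin gene, and UNC13A, a gene of synaptic vesicle priming. AJAP1, ARNT2, DAB1, PHACTR3 and CCDC200 each held 2 members, no control-only peak and 1 to 4 shared peaks. ARHGEF1, CEMIP, GSE1, LHPP, PDE10A, RBFOX1, TMEM132D and VAV2 each held 2 members beside 1 or 2 control-only peaks. The last of the 21 are ENSG00000272297 and ENSG00000284686, with 2 members each.

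Common fragile site genes are long genes where chromosomes tend to break under replication stress. Of the 26 listed genes, 5 overlapped a member, 8 a control-only peak and 8 a shared peak. DAB1 and RBFOX1 held 2 members each and FHIT, AUTS2 and CSMD1 held 1 each, so that 7 members (1.42%) lay in this list, against 10 control-only peaks (0.724%) and 21 shared peaks (0.708%). The FHIT member, at chr3:59952977-59953384, was at the score ceiling with 69.9% purines and was the only tract-free arm peak of these lists in that gene. Genes of at least 500 kb held 35 members (7.09%), 117 control-only peaks (8.47%) and 250 shared peaks (8.43%). These counts are descriptions without a test, and the share of arm windows in these genes was not computed.

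The gene families listed by symbol held few peaks of any list. The 476 zinc finger genes held 0 members, 14 control-only peaks (1.01%) and 30 shared peaks (1.01%). The 870 olfactory receptor genes held 0 members, 0 control-only peaks and 1 shared peak, and the 131 histone genes held 0 members, 2 control-only peaks and 0 shared peaks. A count of 0 among 494 members allows a share of up to 0.607%, taken as 3 counts in 494 and not as a Wilson limit, and no difference was tested here. A single member, at chr5:141495399-141496096, lay where 22 nested gamma-protocadherin genes overlap. Among 6951 small RNA genes 2 were overlapped, RNVU1-18, a variant of the U1 splicing RNA, and MIR4737, a microRNA gene within HEATR6.

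Distance from peaks found in both genotypes was compared with control-only peaks alone. A shared peak lay within 100 kb of 241 members (48.8%) and of 48.8% of control-only peaks (exact test adjusted p = 1.00). Within 10 kb, 11.5% of members and 7.24% of control-only peaks had 1 (exact test adjusted p = 0.00764).

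A minority of members lacked repeats, GC skew, further copies and a nearby start. Of the 494, 238 held neither a short nor a longer repeat, but 146 of those had a GC skew of at least 0.4, and those rich in purines made up 24.9% of all members. Unique sequence with no repeat, a GC skew under 0.4 and no start within 1 kb was found in 51 members (10.3%). These combined counts were not made for control-only or shared peaks, so they are not read as particular to the members.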

How the data were processed

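Per the labels and the study's methods, the authors trimmed reads (Trim Galore), aligned them to hg38 with Bowtie2, removed duplicates with Picard, called peaks per sample with MACS2 and merged the 3 samples of a genotype with MSPC; versions and thresholds are not given in the sources used here. The deposited consensus lists give positions and a -log10 p, written as infinite at its ceiling. The deposited lists of peaks in 1 genotype equalled those recomputed here and were replaced by the latter. Members and gene lists were chosen with earlier results of these data known. Of the named genes, those of fixed lists, those with at least 2 members and those with the 15 highest-scoring starts are given, as are the 5 highest-scoring unique members and the extremes of each measure; the purine-rich member in CCNB3, the DANT2, FBLN7 and other GC-rich members were named after their values were seen.

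Sequence came from hg38 and annotation from GENCODE 44. Words of 50 bases were counted on both strands over the whole reference. Longer repeats need 80% identity over 50 bases, short repeats 90% over 30. The control-only and shared lists passed the same position and tract limits. Shares were compared by Fisher's exact test, two-sided, in scipy 1.17.1, over 21 planned and 14 added comparisons. Measures were tested on simulated sequences. The reference has no repeat masking, so the masked share was not run. p-values measure the difference between lists only. Some member sequences are not reported here.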

Additional observations from a re-analysis of the deposited data

How the results depend on the processing

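No paired analysis was possible because each list is merged over the 3 samples of a genotype and holds no value per replicate; hence leaving replicates out was not run either. Each share was recomputed under the alternatives, with its difference from the other list in percentage points; satellite peaks left out and a GC range of 45 to 55% were chosen after seeing the data, as were the measures of skew, composition, longer repeats, 70% GC and local arrays. Outside the chromosomes left out in turn, 331 values stayed on the same side of the threshold, among them all values without satellite peaks. Some of these changed sign where neither value passed. The G-quadruplex difference from control-only peaks, for example, went from 0.746 to -2.69 among higher-scoring peaks. A further 27 values no longer passed, 6 newly passed and 3 reversed. The cause of each change was not tested, save where construction gives it.

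Over the central 300 bases, members fell below control-only peaks in GC skew by -8.14 points, now past the threshold, and without runs of 20 or more purines by -7.27. With peaks within 100 kb counted once the difference in unique sequence from control-only peaks (-4.31) and those from shared peaks in gene overlap (5.54) and local arrays (1.42) no longer passed, nor did those for chromosomes 2 (3.65) and 4 (3.07). Among higher-scoring peaks unique sequence (-5.64) and starts within 1 kb (4.43) against control-only peaks were lost, as were gene overlap (4.81), 7SL matches (1.03) and local arrays (2.38) against shared peaks. In unique sequence alone the CpG island difference from control-only peaks was 2.37 and did not pass, purine-rich peaks exceeded shared peaks by 6.33 and passed, and GC of 70% and local arrays gave 0 against both lists, since no such peak is unique. With widths of 300 to 1000 bases the unique share differed by -4.18 and was lost. At a reciprocal overlap of 50% alternating runs passed against shared peaks at -3.60, and with runs of 20 bases at -10.9. Without runs of 20 or more purines, starts within 1 kb (3.20) and G and T (4.90) against control-only peaks were lost. Short repeats of at least 50 bases passed against control-only peaks at -3.69. Starts within 5 kb gave 0.129, no longer past the threshold. A shared peak within 10 kb gave 4.30 and passed, where the difference within 100 kb was -0.0198 and did not. In peaks of 45 to 55% GC the unique share (0.546) and the G-quadruplex share (-7.32) against control-only peaks reversed, the latter from 0.746, which had not passed. In the same range starts (2.11) and local arrays (1.95) against control-only peaks did not pass. Nor did short repeats (-7.21), G-quadruplex (1.23), genes (5.73), starts (3.74), exons (2.91) and local arrays (0.533) against shared peaks. With each chromosome left out in turn, 7SL matches against shared peaks ranged from 0.944 to 2.01, lost without chromosome 1; local arrays from 2.42 to 5.69, lost without chromosome 9; and G and T against control-only peaks from 5.51 to 8.12, lost without chromosome 10. The number of members was 486 with no control peak within 1 kb, 541 at reciprocal overlap and 415 without purine runs of 20 or more.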
